A study of Mus musculus with 12 samples.

Results

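The surfactant and alveolar type 2 genes were 10 genes picked by name from the deposited gene table, Sftpa1, Sftpb, Sftpc, Sftpd, Abca3, Lpcat1, Lamp3, Napsa, Slc34a2 and Etv5. All 10 were present, among 55679 genes, and all are protein-coding. RNA was sequenced from the lung and the heart of 6 male mice of strain 129S6/SvEvTac, aged 9 to 13 weeks. The 3 KO mice were homozygous for an Adam19 allele in which a tdTomato construct replaced exons 6 and 7, and the 3 WT mice carried the wildtype gene. The allele disrupts the gene in the whole body, and the labels name no treatment. Each organ was frozen whole, so each of the 12 libraries mixed all the cell types of that organ. A replicate number names 1 mouse of a genotype, whose lung and heart both carry it, and WT and KO mice with the same number are different animals. The identifiers of WT and KO mice share no prefix, so a difference between litters or cages, if the prefix marks one, cannot be told apart from genotype.

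Surfactant is the film of lipid and protein that lowers surface tension in the alveoli. Alveolar type 2 cells make it, store it in lamellar bodies and secrete it into the air space, and they also renew the flat alveolar type 1 cells. Sftpb and Sftpc encode the small hydrophobic proteins SP-B and SP-C, which spread the lipid film. Sftpa1 and Sftpd encode the collectins SP-A and SP-D, which bind microbes and regulate surfactant turnover. Abca3 pumps phospholipid into lamellar bodies, Lpcat1 makes dipalmitoyl phosphatidylcholine, and Lamp3 is a protein of the lamellar body membrane. Napsa encodes napsin A, a protease that cuts the SP-B precursor, Slc34a2 a phosphate transporter of the apical membrane, and Etv5 a transcription factor that maintains the type 2 cell state.

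The promoters of the 4 surfactant proteins are shown with that of Lpcat1, because these 4 genes were restricted to the lung, whereas Lpcat1 was also present in the heart. Each sequence is the 250 bases before the start of the canonical transcript in GRCm39, read 5′ to 3′ on the gene's strand. Capitals mark the letters CTCAAG, the core bound by NKX2-1, and TATAAA, the core of a TATA box.
Sftpa1, chr14:40853489-40853738, forward strand: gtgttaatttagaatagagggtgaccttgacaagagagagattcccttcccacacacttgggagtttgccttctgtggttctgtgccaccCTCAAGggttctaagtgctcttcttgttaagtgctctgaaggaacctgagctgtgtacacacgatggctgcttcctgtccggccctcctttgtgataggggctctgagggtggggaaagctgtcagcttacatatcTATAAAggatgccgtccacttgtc
Sftpb, chr6:72281344-72281593, forward strand: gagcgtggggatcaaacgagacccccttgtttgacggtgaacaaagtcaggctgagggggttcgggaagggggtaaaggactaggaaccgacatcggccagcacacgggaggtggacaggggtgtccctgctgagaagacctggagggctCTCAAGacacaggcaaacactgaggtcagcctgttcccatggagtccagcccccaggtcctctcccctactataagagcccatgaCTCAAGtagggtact
Sftpc, chr14:70761525-70761774, reverse strand: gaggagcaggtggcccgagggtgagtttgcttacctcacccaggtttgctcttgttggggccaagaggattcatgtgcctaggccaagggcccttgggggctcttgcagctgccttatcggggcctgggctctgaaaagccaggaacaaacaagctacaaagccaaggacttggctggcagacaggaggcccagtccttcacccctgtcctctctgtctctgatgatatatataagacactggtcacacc
Sftpd, chr14:40907129-40907378, reverse strand: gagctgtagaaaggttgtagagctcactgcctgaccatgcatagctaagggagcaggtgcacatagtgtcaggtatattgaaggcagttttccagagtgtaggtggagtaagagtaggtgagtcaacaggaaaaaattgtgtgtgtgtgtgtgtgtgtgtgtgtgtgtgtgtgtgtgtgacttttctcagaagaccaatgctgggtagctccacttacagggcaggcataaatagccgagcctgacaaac
Lpcat1, chr13:73615066-73615315, forward strand: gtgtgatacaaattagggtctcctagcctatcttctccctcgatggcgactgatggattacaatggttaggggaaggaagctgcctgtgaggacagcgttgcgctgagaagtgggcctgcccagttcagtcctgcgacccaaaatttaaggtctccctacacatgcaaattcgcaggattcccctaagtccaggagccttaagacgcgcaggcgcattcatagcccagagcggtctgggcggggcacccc

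Both strands were searched for 4 cores, among the 10 genes and in the 21751 promoters of protein-coding genes cut in the same way. CTCAAG occurred in 3175 of these promoters (14.6%), and among the 10 genes once in Sftpa1, at 160 to 155 bases before the start, once in Napsa and 2 times in Sftpb, at 100 to 95 and at 15 to 10 bases before it. The forkhead core TGTTTAC occurred in Lamp3 and Etv5 and in 2.72% of all promoters. The C/EBP core TTGCNNAA occurred in Napsa and Slc34a2 and in 9.34%. TATAAA occurred in Sftpa1 and Etv5 and in 11.9%. In Napsa the matches to CTCAAG and TTGCNNAA shared bases. None of the 4 cores lay in these windows of Sftpc, Sftpd, Abca3 or Lpcat1. The number of CpG dinucleotides was 3 in Sftpa1, 7 in Sftpb, 2 in Sftpc, 1 in Sftpd, 0 in Lamp3 and 2 in Napsa. It was 11 in Lpcat1, 12 in Etv5, 23 in Abca3 and 28 in Slc34a2, and the median of all promoters was 8 with quartiles of 3 and 16. Abca3, Lpcat1 and Etv5, the genes with the smallest lung-heart differences, thus had more CpGs than the median promoter, but so did Slc34a2, a lung-restricted gene. Sftpa1 (14, 40853739 to 40858551, forward strand) and Sftpd (14, 40894170 to 40907128, reverse strand) lie near each other, and Sftpc lies farther along the same chromosome (70758389 to 70761524, reverse strand).

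The libraries held between 17674788 and 35862932 estimated reads. Values are normalised abundances on a log2 scale, close to log2(1 + estimated count) plus a constant for each library of −0.63 to 0.80. Adam19 had values of 9.14, 9.41 and 9.12 in WT lungs and 4.44, 3.21 and 3.50 in KO lungs. In the heart it had 9.17, 9.25 and 10.27 in WT and 6.67, 6.01 and 6.56 in KO, so every library matched its genotype label. The tissue labels were matched by the summed level of 10 heart muscle genes, 21.00 to 21.23 in hearts and 13.83 to 14.99 in lungs. The noncoding RNA Rn7s1 took between 2.10% and 34.0% of a library's summed normalised abundance, taken off the log2 scale and not divided by length. Per-length levels are therefore given as TPM over the 20992 protein-coding genes outside the mitochondrial genome. TPM is estimated counts divided by transcript length and scaled to a fixed sum.

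All 10 genes were called higher in lung than in heart, in both genotypes (limma, called at an adjusted p under 0.05, a fold of at least 1.5 and a group mean of at least 6). The genes were picked as genes of a lung cell type. The 3 lungs of a genotype were also enough to pass the filter on low values. Lamp3, for one, had 3.17, 2.42 and 4.58 in WT hearts. These calls and their p-values therefore describe the genes and add no support. Of all genes tested, 29.7% were called higher in the lung in WT and 30.9% in KO. The median lung-heart difference of the 10 genes was 10.52 in WT, against 0.30 over all genes, and 9.69 in KO, against 0.28. Since these are whole organs, fewer cells of a type and less RNA per cell cannot be told apart, in this comparison and in all that follow.

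The genes fell into 2 sets by the size of the lung-heart difference. Sftpa1, Sftpb, Sftpc, Sftpd, Lamp3, Napsa and Slc34a2 were all but restricted to the lung. Sftpc had values of 17.02, 16.94 and 17.28 in WT lungs and 5.51, 4.78 and 7.71 in WT hearts, a difference of 11.08 (SE 0.63, adjusted p = 2.45e-06, limma). In KO mice it had 16.58, 16.32 and 16.32 in the lung and 6.90, 7.53 and 4.80 in the heart, a difference of 9.998 (SE 0.59). Slc34a2 was even among WT lungs on this scale, with 15.55, 15.55 and 15.54, against 4.07, 2.67 and 6.61 in WT hearts. Sftpb, whose product is needed for breathing at birth, had 15.26, 15.70 and 14.76 in WT lungs and 4.14, 2.61 and 6.63 in WT hearts. The heart values of these 7 genes rested on few reads, from 0.8 estimated counts for Lamp3 in KO heart 3 to 194.3 for Sftpc in KO heart 2. Their lung-heart differences in WT ran from 8.74 for Napsa to 11.10 for Slc34a2, and in KO from 7.96 for Napsa to 10.89 for Lamp3.

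Abca3, Lpcat1 and Etv5 had clear levels in the heart as well. Abca3 had 13.82, 14.01 and 13.75 in WT lungs and 10.24, 10.28 and 10.13 in WT hearts, a difference of 3.64 (SE 0.15, adjusted p = 5.68e-07, limma). Lpcat1 had 13.26, 13.26 and 13.42 in WT lungs and 8.30, 7.93 and 8.37 in WT hearts, a difference of 5.12 (SE 0.17). Etv5 had 12.03, 11.91 and 11.66 in WT lungs and 8.46, 8.71 and 8.58 in WT hearts, a difference of 3.28 (SE 0.16). In KO mice the differences of Abca3, Lpcat1 and Etv5 were 3.82, 4.98 and 2.90. Lung and heart did not overlap for any of the 10 genes in either genotype, nor did they for 68.7% of all genes tested in WT and 77.0% in KO. Transcripts of Abca3, Lpcat1 and Etv5 were thus present in the heart at counts of 659.0 to 1357.1, 150.4 to 394.1 and 223.4 to 629.3 per library. In the plot of values by library, the step from lung to heart is shortest for these 3 genes.

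**Figure D1:**
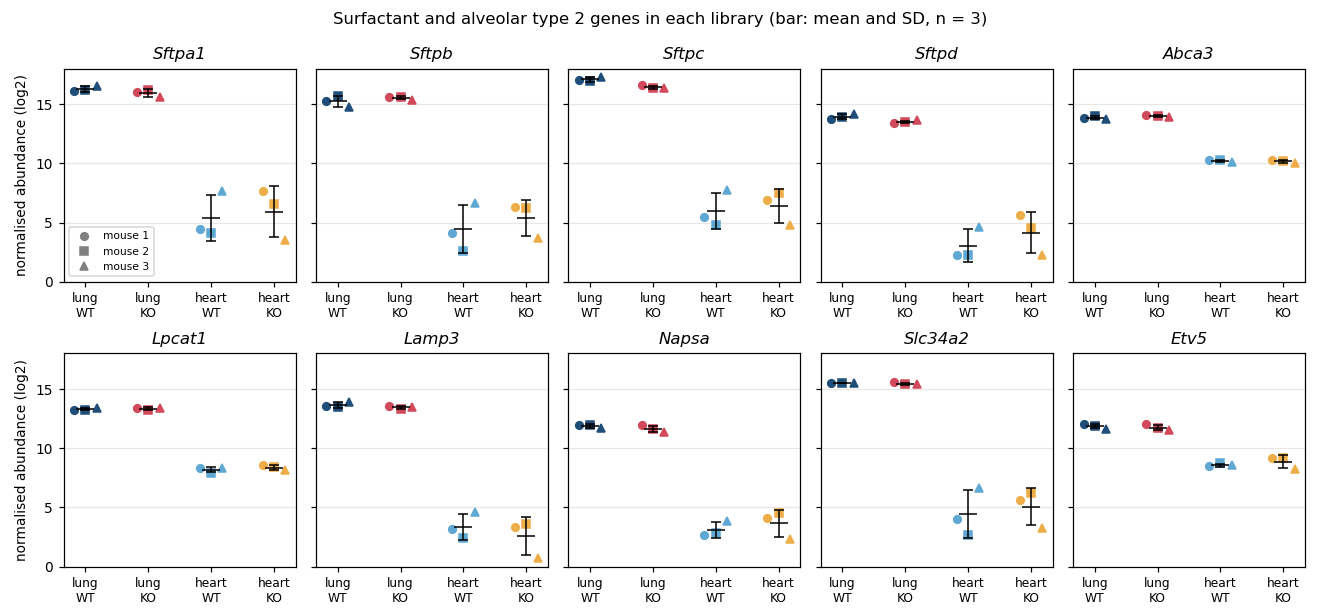
Normalised abundance (log2, vertical axis) of the 10 genes in each library of lung and heart, WT and KO. Points are libraries, with the symbol giving the replicate number of the mouse, and bars are the mean and SD of 3. Sftpc lies at 16.32 to 17.28 in the 6 lungs and at 4.78 to 7.71 in the 6 hearts, while Abca3 lies at 13.75 to 14.08 and at 10.05 to 10.28.

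The low heart values of the lung-restricted genes moved together from mouse to mouse. WT heart 3, KO heart 1 and KO heart 2 held ranks 1 to 3 among the 6 hearts for each of the 7 genes, and WT hearts 1 and 2 and KO heart 3 held ranks 4 to 6. The 7 genes together had 352.0 estimated counts in WT heart 3, 502.8 in KO heart 1 and 497.4 in KO heart 2. They had 131.3 in WT heart 1, 39.4 in WT heart 2 and 75.7 in KO heart 3. Lpcat1 showed the same order at a higher level, with 8.37 in WT heart 3, 8.55 in KO heart 1 and 8.40 in KO heart 2 against 8.30, 7.93 and 8.14 in the other hearts. Etv5 followed it in part, with 9.16 and 9.19 in KO hearts 1 and 2 but 8.58 in WT heart 3. Abca3 did not, with 10.13 in WT heart 3 and 10.24 in WT heart 1.

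Some genes of other lung cell types showed the same order, and others did not. Ager, a receptor of alveolar type 1 cells, had 4.17, 3.68 and 6.36 in WT hearts and 5.83, 6.03 and 3.79 in KO hearts. The sum of 8 alveolar type 1 markers, Ager among them, broke the order. It was 14.130, 14.174 and 14.236 in WT hearts and 14.172, 14.334 and 14.174 in KO hearts. Scgb1a1, the club cell secretoglobin, had 6.39, 4.54 and 8.32 in WT hearts and 10.23, 8.31 and 5.06 in KO hearts. The summed level of the 8 airway secretory markers ran from 6.24 to 8.75 in WT hearts and from 6.39 to 11.55 in KO hearts. The sum of 7 ciliated markers broke the order, with 9.42, 8.87 and 9.24 in WT hearts and 10.07, 8.76 and 9.88 in KO hearts. The order was also broken by the sum of 6 alveolar macrophage markers. Their sum was 5.736, 5.9975 and 6.024 in WT hearts and 5.883, 5.399 and 5.388 in KO hearts. Of 2 single alveolar macrophage genes, Marco broke the order, with 1.86, 1.72 and 1.82 in WT hearts and 1.91, 0.90 and 0 in KO hearts. The other, Chil3, kept it, with 3.34, 3.19 and 5.18 in WT hearts and 3.39, 4.27 and 2.75 in KO hearts. Within a mouse, lung minus heart was 8.78 to 12.16 for Sftpc, 8.46 to 11.40 for Ager and 7.87 to 13.58 for Scgb1a1. It was only 3.57 to 3.88 for Abca3, 4.82 to 5.33 for Lpcat1 and 2.52 to 3.57 for Etv5. The part of other lung cells in the heart values was not tested.

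**Figure D2:**
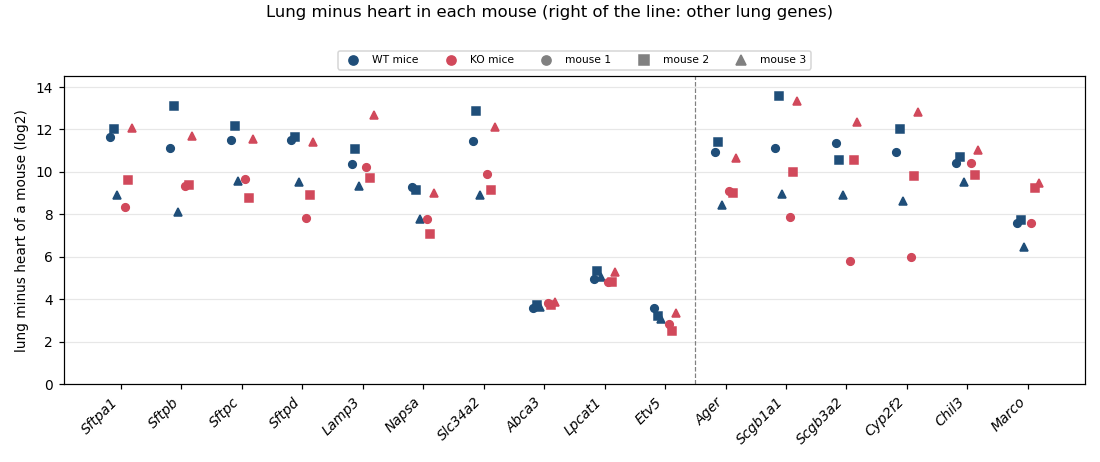
Lung minus heart of the same mouse (log2, vertical axis) for the 10 genes and, to the right of the dashed line, 6 genes of other lung cells. Each point is a mouse, and WT and KO mice that share a symbol are different animals. The 7 lung-restricted genes spread over 7.10 to 13.09, as do Ager and the airway genes in part, whereas Abca3 stays within 3.57 to 3.88.

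Levels of different genes can be compared only per length, and in the lung they spanned more than 2 orders of magnitude. Sftpc stood first. Its level was 26744, 25125 and 27828 TPM in WT lungs and 18750, 15620 and 16587 TPM in KO lungs, and it ranked 2 or 3 of the 20992 protein-coding genes in every lung. Sftpb (3988 ± 1473 TPM, SD, n = 3), Sftpa1 (3566 ± 292), Sftpd (1828 ± 140) and Slc34a2 (1760 ± 139) followed in WT lungs. Then came Lamp3 (589 ± 49), Lpcat1 (447 ± 7.9), Napsa (370 ± 69), Abca3 (357 ± 55) and Etv5 (147 ± 29). The order was that of WT lungs. Neighbours overlapped for Sftpb and Sftpa1, for Sftpd and Slc34a2 and for Napsa and Abca3 in WT lungs, and for Lamp3 and Lpcat1 in KO lungs. In KO lungs 2 pairs were apart in the reverse order, with Slc34a2 (1595 to 1766 TPM) above Sftpd (1284 to 1544 TPM) and Abca3 (380.4 to 410.0 TPM) above Napsa (266.6 to 377.9 TPM). Sftpb was spread widely over the WT lungs, at 4033, 5437 and 2492 TPM. Sftpc was 3.25 to 11.2 times as high as Sftpb in the 6 lungs and 118.3 to 244.1 times as high as Etv5. The 10 genes together took 39523, 39829 and 39495.5 TPM in WT lungs and 32017.5, 28605 and 28879 TPM in KO lungs, and the groups did not overlap. This rests on the choice of genes in the sum. TPM over all genes also counts Rn7s1 and the other noncoding and mitochondrial genes. On that scale the 10 genes took 5923, 7265 and 13486 in WT lungs and 12125, 15243 and 7467 in KO lungs. The groups overlapped there, and the higher mean lay in KO. The part of Rn7s1 in this turn was not tested. Sftpc made up 63.1% to 70.5% of the abundance of the 10 genes in WT lungs and 54.6% to 58.6% in KO lungs. The sum over the other 9 genes, over protein-coding genes again, was 12779, 14704 and 11668 TPM in WT lungs and 13267, 12985 and 12292 TPM in KO lungs, which overlapped.

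**Figure D3:**
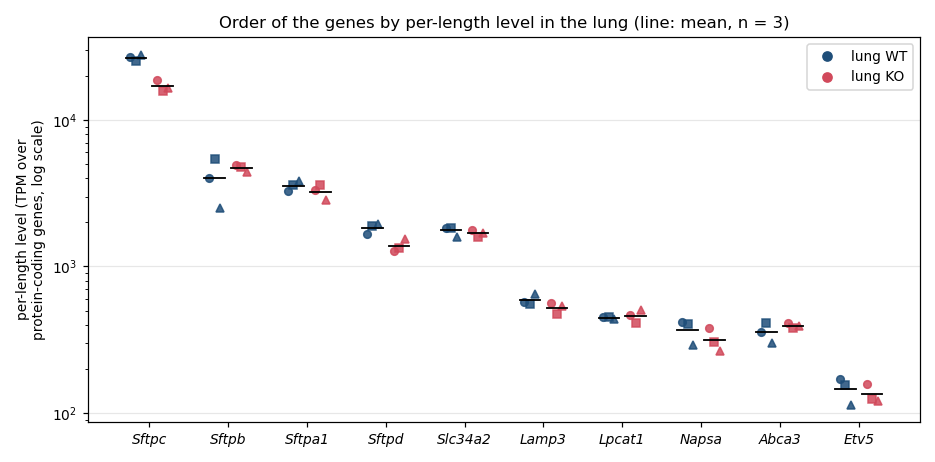
Per-length level (TPM over the protein-coding genes, log scale, vertical axis) of the 10 genes in the lung, ordered by their mean in WT. Points are libraries and lines are means of 3. Sftpc lies at 15620 to 27828, the next gene, Sftpb, at 2492 to 5437, and Etv5 lies at 114.0 to 170.1.

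The genotypes were then compared within the lung, to ask whether loss of Adam19 came with a change in the genes of surfactant. None of the 10 genes was called in limma, nor in limma-voom, against 0.0665% of the 16551 genes tested. Adjusted p-values ran from 0.806 to 0.977, and 2 of the 10 genes had an unadjusted p under 0.05, as had 5.93% of all genes tested. The median difference of the 10 genes was −0.16, against 0.01 over all genes, with 7 lower and 3 higher in KO lungs. Quantile normalisation gave 6 lower and 4 higher. limma-voom gave 3 lower and 7 higher, but 7 below and 3 above its median over all genes.

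Among the surfactant proteins, Sftpc and Sftpd had the largest differences on the deposited scale. Sftpc had values of 17.02, 16.94 and 17.28 in WT lungs and 16.58, 16.32 and 16.32 in KO lungs. Every KO lung lay below every WT lung, with a difference of −0.67 (SE 0.20, 95% interval −1.12 to −0.22, adjusted p = 0.806, limma), a ratio of 0.629 of KO to WT. Sftpd had 13.74, 13.91 and 14.16 in WT lungs and 13.43, 13.48 and 13.62 in KO lungs. Again the groups did not overlap, with a difference of −0.43 (SE 0.16, interval −0.80 to −0.06, adjusted p = 0.806). Of all genes tested, 12.8% were without overlap between the genotypes, and 2 of the 10 here. An exact two-sided permutation test gave 0.1 for both genes, the smallest value that 3 against 3 allows.

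Sftpa1 and Sftpb overlapped between the genotypes. Sftpa1 had 16.12, 16.15 and 16.56 in WT lungs and 16.01, 16.19 and 15.57 in KO lungs, a difference of −0.36 (SE 0.23, interval −0.87 to 0.16). Sftpb had 15.26, 15.70 and 14.76 in WT lungs and 15.63, 15.59 and 15.38 in KO lungs, a difference of 0.29 (SE 0.24, interval −0.27 to 0.84). The difference of Sftpb rested on WT lung 3, without which it was 0.049, and it was 0.52 without WT lung 2.

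Of the genes of lipid transport and lamellar bodies, Abca3 and Lpcat1 lay close to 0 and Lamp3 somewhat below it. Abca3 had 14.08, 13.97 and 13.93 in KO lungs, a difference of 0.13 (SE 0.15, interval −0.21 to 0.47). Lpcat1 had 13.39, 13.22 and 13.42 in KO lungs, a difference of 0.03 (SE 0.15, interval −0.30 to 0.36). Lamp3 had 13.55, 13.51 and 13.93 in WT lungs and 13.60, 13.35 and 13.45 in KO lungs, a difference of −0.20 (SE 0.17, interval −0.58 to 0.19). The values of each of these genes overlapped between WT and KO lungs.

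Napsa, Slc34a2 and Etv5 also overlapped. Napsa had 11.97, 11.94 and 11.67 in WT lungs and 11.92, 11.61 and 11.35 in KO lungs, a difference of −0.23 (SE 0.18, interval −0.65 to 0.18). Slc34a2 had 15.56, 15.41 and 15.42 in KO lungs, a difference of −0.08 (SE 0.16, interval −0.44 to 0.28). Etv5 had 12.004, 11.70 and 11.54 in KO lungs, a difference of −0.12 (SE 0.17, interval −0.52 to 0.28). Together the intervals of Abca3, Lpcat1, Slc34a2 and Etv5 ran from −0.52 to 0.47.

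Leaving out any library kept the difference of Sftpc between −0.76 and −0.57 and that of Sftpd between −0.52 and −0.32. Quantile normalisation brought Sftpc to −0.21, below the size of Sftpd (−0.39) and Sftpb (0.35). Under limma-voom on library totals Sftpc was −0.39, Sftpd −0.14 and Sftpb 0.57, where the median over all genes stood at 0.30.

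**Figure D4:**
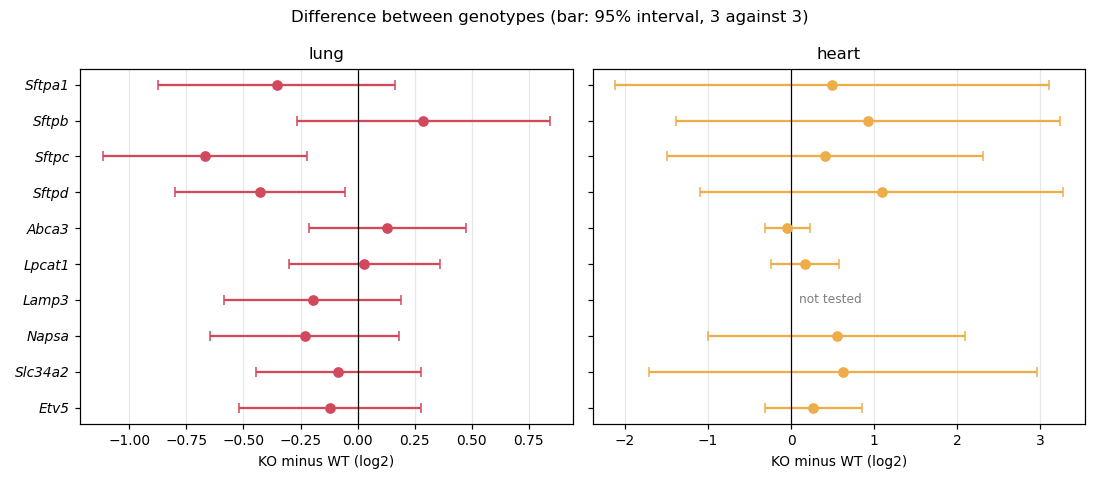
KO minus WT difference (log2, horizontal axis) of each of the 10 genes in the lung and in the heart, with its 95% interval from limma on 3 libraries against 3. In the lung only the intervals of Sftpc and Sftpd leave out 0 before adjustment. In the heart the intervals of the lung-restricted genes are wide, up to −2.12 to 3.10 for Sftpa1, and Lamp3 was too low to be tested.

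In the heart, 9 of the 10 genes could be tested between genotypes, and none was called, against 0.085% of 15303 genes. Lamp3 was left out by the filter on low values. No unadjusted p lay under 0.05, and the groups overlapped for all 9 genes. Of the 9 genes, 8 were higher in KO hearts, with a median difference of 0.49 against 0.03 over all genes. The untested Lamp3 went the other way, with a mean of 3.39 in WT hearts and 2.58 in KO hearts. The lung-restricted genes moved together from heart to heart, so this count is not one of independent genes. The SEs of the lung-restricted genes ran from 0.68 to 1.15, and WT heart 3 sat with KO hearts 1 and 2. Abca3 differed by −0.04 (SE 0.12), Lpcat1 by 0.17 (SE 0.18) and Etv5 by 0.27 (SE 0.26). The genotype effect in the lung minus that in the heart was not called for any of the 10 genes, against 0.00566% of 17666 genes. Its largest size was −1.52 (SE 1.05, adjusted p = 0.727, limma) for Sftpd.

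The transcripts of the genes added detail that the gene values hide. Their shares are of the gene's estimated counts in a library, and the choice of transcripts to describe was made after seeing them. Sftpa1 has 2 coding transcripts over the same span, of 3002 and 2969 bases. The shorter, ENSMUST00000022314.10, took 34.9%, 28.2% and 35.8% of Sftpa1 in WT lungs and 22.2%, 26.5% and 13.6% in KO lungs, without overlap. Sftpc has a transcript with a retained intron, ENSMUST00000227152.2, which took 2.46%, 4.44% and 2.66% in WT lungs and 4.50%, 5.06% and 5.23% in KO lungs. Its share did not overlap between the genotypes either, while the coding transcript kept 94.8% to 97.5% of Sftpc in every lung. The minor coding transcript of Abca3, ENSMUST00000117337.2, took 1.53% to 5.25% in WT lungs and 6.21% to 8.01% in KO lungs. The exact permutation p was 0.1 for each, the smallest possible, and since these shares were picked after seeing them, it adds no support. The main coding transcripts of Sftpb, Sftpd, Slc34a2, Lpcat1, Abca3 and Etv5 overlapped between the genotypes. Those of Sftpa1, Sftpc and Napsa did not. That of Napsa took 99.38%, 98.64% and 98.66% in WT lungs and 98.35%, 98.41% and 97.22% in KO lungs. The part of all coding transcripts without overlap was not counted. Of the 10 genes, 7 had retained-intron transcripts. Their share was above every WT lung in every KO lung for 3, namely Sftpc, Napsa and Lpcat1, against 6.24% of the 5624 genes with such transcripts. This count too was chosen after seeing the values, so it adds no support. Over the 5624 genes the share leaned the same way, with 351 wholly above and 205 wholly below in KO lungs.

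In 2 genes a transcript stood out in single libraries. A Lpcat1 transcript marked for nonsense-mediated decay, ENSMUST00000123766.8, took 56.3% of Lpcat1 in WT lung 3, at 7606.2 estimated counts, and 0.602% to 2.29% in the other lungs. The summed level of Lpcat1 in WT lung 3 stayed near that of the other lungs. The minor coding transcript of Etv5, ENSMUST00000168774.8, took 57.9% in KO lung 2, 8.70% in KO lung 3 and 29.6% in WT heart 1, and was listed at 0 in the other 9 libraries. Whether these shares are a matter of how reads were divided among similar transcripts was not tested. Lamp3 has 1 transcript in the table.

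**Figure D5:**
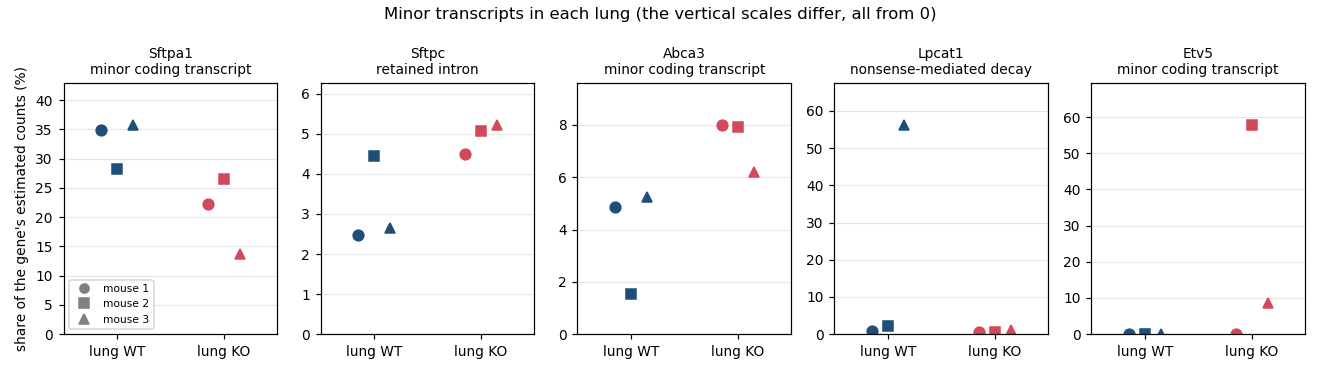
Share of the gene's estimated counts (percent, vertical axis from 0, each panel with its own scale) of one minor transcript of Sftpa1, Sftpc, Abca3, Lpcat1 and Etv5 in each lung. The symbol gives the replicate number. The transcripts were chosen after seeing the shares. The first 3 panels show no overlap between WT and KO. The last 2 show a share above 50% in a single lung, 56.3% for Lpcat1 and 57.9% for Etv5.

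Genes that share sequence or overlap were checked for the 10. Etv5 is 98.6% identical over 1700 bases to Gm4798, which had at most 1.82 in any lung, against 11.54 or more for Etv5. Abca3 overlaps D330041H03Rik on the opposite strand, at 4.54 to 5.87 in the lungs, and Sftpd overlaps Mbl1, at 4.76 to 5.19. Other noncoding genes overlap on the opposite strand, and their levels were not examined. They are Gm67669 for Sftpb, Gm15396 for Napsa, Gm17182 for Slc34a2, Gm61225 and Gm59753 for Etv5, and Gm25618 for Abca3. The libraries were stranded, but the strand setting of the quantification was not given in the sources used here. Lamp3 shares up to 96.0% over 556 bases with Ppid and shorter stretches with 6 other genes, so part of its reads could be divided between them.

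No gene of the 5 pathway lists around surfactant was called between the genotypes, in the lung or in the heart. In surfactant lipid synthesis, 15 of 28 genes were higher and 13 lower in KO lungs, with a median of 0.02. Pcyt1b, an enzyme of phosphatidylcholine synthesis, had the largest difference, with 5.23, 4.92 and 4.68 in WT lungs and 6.22, 5.86 and 6.50 in KO lungs. The difference was 1.25 (SE 0.30, adjusted p = 0.783, limma), and the groups did not overlap. Lpcat4, a lysophospholipid acyltransferase, differed by 0.55 (SE 0.40).

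Protein processing and lamellar body traffic had 8 of 22 genes higher and 14 lower, with a median of −0.04. Ap3d1, a subunit of the AP-3 sorting complex, had 10.94, 11.19 and 10.78 in WT lungs and 11.28, 11.62 and 11.28 in KO lungs, a difference of 0.42 (SE 0.17). Rab38, a small GTPase of lamellar body formation, differed by 0.36 (SE 0.23). Macrophages clear surfactant under the control of GM-CSF, and of 10 genes listed for this clearance, measured in whole lung, 4 were higher and 6 lower. Csf2, which encodes GM-CSF, differed by −0.55 (SE 0.39) and the cholesterol exporter Abca1 by 0.38 (SE 0.18).

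Of the other genes of alveolar type 2 cells, 15 of 18 were lower in KO lungs and 3 higher, with a median of −0.18 against 0.01 over all genes. None was called, and 3 of the 18 had an unadjusted p under 0.05, against the 5.93% of all genes. Ppp1r14c, an inhibitor of protein phosphatase 1, had 10.90, 10.53 and 10.87 in WT lungs and 10.38, 9.46 and 9.83 in KO lungs, a difference of −0.88 (SE 0.24, adjusted p = 0.806, limma). It is also a heart gene, with 12.13 to 12.67 in the hearts. Of the 10 heart muscle markers, 9 were lower in KO lungs, with a median of −0.42, and 0 were without overlap. Their summed level was 14.26 to 14.99 in WT lungs and 13.83 to 14.29 in KO lungs, which overlapped. A part of heart muscle in the difference of Ppp1r14c was not tested. S100g, a calcium-binding protein, had 9.84, 9.65 and 11.35 in WT lungs and 9.53, 9.29 and 9.70 in KO lungs, a difference of −0.77 (SE 0.40) in which WT lung 3 lay above all other lungs. The regulators of type 2 cells gave 14 of 22 tested genes higher and 8 lower, with a median of 0.05. The transcription factor Gata6 differed by −0.48 (SE 0.22) and Spry4, an inhibitor of growth factor signalling, by 0.43 (SE 0.43). Nkx2-1, the factor whose core was searched in the promoters and which lies outside the rule for named genes, had 9.99, 9.69 and 9.04 in WT lungs and 9.76, 9.43 and 9.68 in KO lungs.

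Markers of other lung cells were counted beside these. All 8 airway secretory markers were higher in KO lungs, with a median of 1.05 against 0.01 over all genes. Of the 8, 5 were without overlap, against 12.8% of all genes tested. None was called, and 5 of the 8 had an unadjusted p under 0.05 (limma), against 5.93% of all genes. Their summed level was 17.63 to 18.34 in WT lungs and 18.37 to 18.65 in KO lungs, with no marker at 0. The 8 alveolar type 1 markers had a median of −0.01, with 3 higher and 5 lower. Of 7 ciliated markers, 5 were higher and 2 lower, with a median of 0.43 and 3 without overlap. Of 6 alveolar macrophage markers, 2 were higher and 4 lower, with a median of −0.20 and 3 without overlap. The 3 red blood cell genes were lower in KO lungs, with a summed level of 12.40 to 16.72 there and 14.51 to 16.21 in WT lungs. The part of these cell types in the differences of Sftpc and Sftpd was not tested.

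The genes most like the surfactant proteins over the 12 libraries were named by the root mean square difference from the centred mean profile of Sftpa1, Sftpb, Sftpc and Sftpd, among 16551 genes. The nearest outside the 10 were Ager (0.37), the sodium channel subunit Scnn1g (0.46), Gramd2 (0.46), the tight junction gene Cldn18 (0.53) and the sodium channel subunit Scnn1b (0.58). Of the 10 genes, Slc34a2 ranked 4, Lamp3 12 and Napsa 34 by this measure. Lpcat1, Abca3 and Etv5 ranked 492, 1186 and 1614, with differences of 2.82, 3.48 and 3.75. The profile is set mainly by the step between lung and heart, and the libraries share their tissue and mouse.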

How the data were processed

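Whole lung and heart of 3 WT and 3 KO male mice gave 12 stranded total RNA libraries. The authors trimmed the reads with cutadapt, aligned them to mm39 with STAR and estimated transcript counts with Salmon, per the labels. They deposited gene and transcript values on a log2 scale, the transcript values as log2(1 + estimated count), with a constant for each library in the gene table. The method behind the constant is not given in the sources used here.

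Genes with a deposited value of at least 3.46 in at least 3 libraries were tested. This value is 10 estimated counts where the constant of the library is 0, and more or fewer elsewhere. The test was limma 3.58.1 (lmFit and eBayes with a variance trend, R 4.3.3) on the deposited log2 values, with Benjamini-Hochberg adjustment over all genes tested. A fold on this scale understates the change of low genes. Calls asked for an adjusted p under 0.05, a fold of at least 1.5 and a group mean of at least 6, and in the interaction for the adjusted p alone. Only the compared groups entered a fit. The 10 genes and all lists were chosen with earlier results of these data known, and support nothing on their own. The pairing of lung and heart comes from mouse identifiers. The lung and heart of a mouse had correlations of deviations of 0.049, 0.136 and −0.024 in WT and 0.020, −0.068 and −0.036 in KO. Nothing in the labels says that the mice came from separate litters.

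Per-length levels divide transcript counts by lengths from GENCODE vM39, which gave a length to 99.5% of the transcripts in the table and annotates the assembly that mm39 names. Promoters came from the same genome. Copies were searched with blastn 2.17.0 (identity of at least 90% over at least 200 bases). Other named genes were, in each pathway list, those past the thresholds or else the 2 with the largest lung difference, and the 5 most similar genes. The test was checked on simulated data. Alternatives were no variance trend, no or a stricter filter, summed transcripts, a pseudocount of 10, other scalings, limma-voom, all 12 libraries in 1 model, the mouse as a block, and leaving out each library.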

Additional observations from a re-analysis of the deposited data

How the results depend on the processing

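No call of the 10 genes between genotypes appeared under any alternative run, in lung or heart, and none in the interaction. All 10 genes were called higher in lung than in heart in both genotypes under every alternative except the stricter filter. With at least 10 estimated counts in every library, taken from the gene values less the constant, 4 genes were tested and called in WT and 6 in KO, since the filter removed the others. Sftpa1 was removed in WT on this scale, although its summed transcripts held more than 10 counts in every library. The mouse as a replicate block was run between tissues and in the interaction, since genotypes within a tissue share no mouse. It again called 10 of 10 genes between tissues and 0 of 10 in the interaction. Over all genes it gave 8295 calls against 8358 in WT, 8904 against 8934 in KO, and 2 against 1 in the interaction.

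Of 794 repeated differences of single genes, 21 changed sign, and none of these was called. In the lung, summed transcripts gave −0.043 for Lpcat1, quantile normalisation gave 0.16 for Slc34a2, and limma-voom gave 0.086 for Lamp3, 0.050 for Napsa, 0.20 for Slc34a2 and 0.16 for Etv5. limma-voom also moved the median of all genes, to 0.30 in the lung, and from 0.30 to 0.73 in WT and from 0.28 to 0.96 in KO between tissues. In the heart, summed transcripts gave 0.013 for Abca3 and −0.020 for Lpcat1. In the interaction, Lpcat1 was 0.035 with quantile normalisation and 0.12 with limma-voom. Leaving out 1 library gave ranges of −0.0089 to 0.093 for Lpcat1 in the lung and, in the heart, −0.38 to 1.69 for Sftpa1, −0.20 to 1.27 for Sftpc, −0.27 to 1.71 for Slc34a2 and −0.087 to 0.020 for Abca3. In the interaction it gave −1.72 to 0.29 for Sftpb, −1.79 to 0.18 for Slc34a2, −2.05 to 0.028 for Sftpa1 and −0.30 to 1.15 for Lamp3. The cause was not tested.

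The summed per-length level of the 10 genes, in TPM over all genes, was 8891 in WT lungs, 11610 in KO lungs, 26.7 in WT hearts and 28.7 in KO hearts. Without noncoding and mitochondrial genes it was 39620, 29830, 62.5 and 71.9, so the order of the lung genotypes turned. With lengths less 200 bases it was 4835 in WT and 7019 in KO lungs. In the heart, the low counts of 7 genes limit what can be seen. With 3 mice a group, changes of the size seen for Sftpc in the lung did not pass the adjustment.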
